A study of Mus musculus with 4 samples.

Results

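Germline, meiosis and piRNA pathway genes are a set of 40 genes chosen by symbol for their known roles in germ cells, out of 24428 genes in the count tables. All 40 symbols were found, and the genes were chosen with earlier results of these data known. They were divided by role into 14 genes of the piRNA pathway, 12 genes of the meiotic chromosome and 14 other germ-cell genes. They were measured by RNA-seq in mouse embryonic stem cells of strain 129SvEv at passages 15 to 20, kept untreated in medium with 15% fetal bovine serum and LIF, the cytokine that holds such cells in self-renewal. In every library the cells carried wild-type Smarca4 tagged with GFP from one allele, and the groups differed in the V5-tagged Smarca4 allele, which was wild-type (WT, 2 libraries) or carried the G784E change (2 libraries). Smarca4 encodes the ATPase of the BAF chromatin remodelling complex, and the study asked what the heterozygous change, called dominant-negative in its title, does to transcription. Nothing in the labels says whether replicates were separate cultures or how many clones a group holds, so that p-values measure only how far these libraries scatter, and that scatter may be technical.

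The piRNA pathway protects the germline genome: PIWI proteins loaded with small RNAs find transposon transcripts, and Tudor-domain proteins and RNA helicases gather them in granules near mitochondria where piRNAs are made. In meiosis, cohesins and axis proteins organise each chromosome, programmed breaks are repaired from the homologue, and the synaptonemal complex zips homologues together. Many of these genes have CpG-rich promoters and are kept low in embryonic stem cells by DNA methylation and by a Polycomb complex that holds Mga, Max, E2f6, L3mbtl2 and Pcgf6.

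Gene counts came to 6226145 and 8895433 for G784E replicates 1 and 2 and to 7027108 and 10083442 for WT replicates 1 and 2. Of these, 4189 to 5993 counts per library lay in the 40 genes. Levels are CPM, that is counts relative to library size after TMM scaling, and 1 count stood for 0.102 to 0.164 CPM. Smarca4, whose alleles the counts cannot tell apart, stood at 3868 and 3580 CPM in G784E and 2423 and 2553 CPM in WT. None of 6 stem cell marker genes passed edgeR's test (1 was higher at an unadjusted p under 0.05, and 0 in DESeq2 or limma-voom after adjustment), with Pou5f1 between 176 and 239 CPM in all libraries, whereas all 6 endoderm markers were lower in G784E, their summed level being 129 and 131 CPM in G784E against 1832 and 2022 CPM in WT. Whether this difference in endoderm markers has a part in the results on germline genes was not tested, and in bulk RNA fewer cells of a type and less RNA per cell cannot be told apart. Spermatid and sperm genes were low: the 14 listed genes summed to 19.0 and 6.36 CPM in G784E and 15.9 and 10.3 CPM in WT, and the protamine gene Prm2 was at 0 in both G784E libraries and in WT replicate 1. The highest of them, Gapdhs, had 17 to 45 counts per library. Of 9 somatic testis genes, summing to 57.9 and 48.2 CPM in G784E and 89.8 and 106 CPM in WT, 6 were tested and 1 fell, Gata4, which is also an endoderm gene. The 8 genes without Gata4 summed to 50.7 and 44.2 CPM in G784E and 37.6 and 41.6 CPM in WT. Among them Wt1, a gene of Sertoli cells and other mesoderm, stood at 5.73 and 5.42 CPM in G784E and 2.38 and 1.62 CPM in WT (log2 fold change 1.48, SE 0.71; edgeR, adjusted p = 0.424). Their defining gene Amh, the Sertoli cell hormone, was at 0 in both G784E libraries and at 0.132 and 0.102 CPM in WT. None of 8 tested fibroblast markers passed in edgeR, and 0 did at an unadjusted p under 0.05 or in DESeq2 or limma-voom.

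Ddx4, Mov10l1, Syce1 and Sycp1 rose in G784E cells, and no gene of the set fell. These 4 were called among 36 members that passed the filter on low counts (edgeR's quasi-likelihood test, Benjamini-Hochberg adjusted p under 0.05 over all tested genes). Over all 15763 tested genes, 0.672% were called higher and 1.89% lower. No member was called lower by DESeq2 or limma-voom either, and none was lower at an unadjusted edgeR p under 0.05, against 7 higher at that level, where 6.48% of all tested genes were lower and 5.14% higher. Of the 36, 22 had a log2 fold change (G784E over WT) above 0 and 14 below, and their median was 0.40, beside -0.002 over all tested genes. Because the members were chosen with earlier results of these data known, the comparison with all tested genes is not independent support. Both G784E libraries lay above both WT libraries for 16 members and below them for 5, where 19.4% of all tested genes did so in each direction. No member was called without WT replicate 1 or without WT replicate 2. The other 4 members, Asz1, Tex101, Slc25a31 and Nanos3, had too few counts to be tested.

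**Figure D1:**
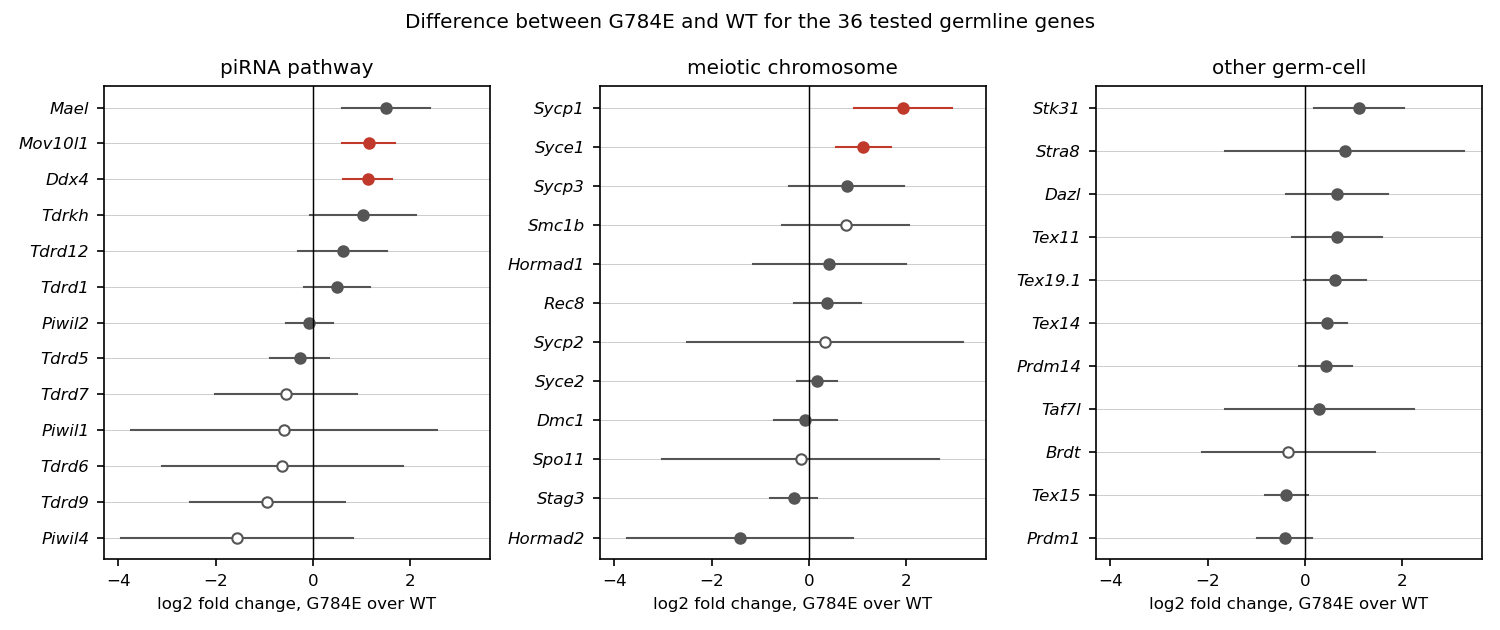
Log2 fold change of the 36 tested genes (x axis, G784E over WT) with its 95% confidence interval, by class. Red marks the 4 genes that passed edgeR's test, and open circles mark genes with a mean level under 3 times the read density of olfactory receptor genes, whose intervals are wide.

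Ddx4 encodes the germ-cell RNA helicase known as vasa. Its level was 33.1 and 39.2 CPM in G784E against 15.8 and 17.2 CPM in WT, from 202, 333, 120 and 169 counts. Both G784E libraries were about the same distance above WT, with no overlap: the log2 ratio was 1.04 between the replicates 1 of the groups and 1.17 between the replicates 2. The fitted log2 fold change was 1.13 (SE 0.24, 2.19-fold; edgeR, adjusted p = 0.00883). Without WT replicate 1 it was 1.08 (adjusted p = 0.169) and without WT replicate 2 it was 1.19 (adjusted p = 0.0739), so that the call was lost while the size stayed close.

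Mov10l1 encodes a helicase that binds piRNA precursors and is needed to start piRNA production. Its levels were 25.7 and 31.8 CPM in G784E and 12.5 and 13.4 CPM in WT. The groups did not overlap, and the WT libraries lay closer to each other than the G784E libraries did. The log2 fold change was 1.15 (SE 0.26, 2.22-fold; edgeR, adjusted p = 0.0133). It was 1.10 without WT replicate 1 (adjusted p = 0.202) and 1.20 without WT replicate 2 (adjusted p = 0.108), neither of which passed.

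Syce1 encodes a protein of the central element of the synaptonemal complex. It stood at 28.0 and 21.7 CPM in G784E and 10.4 and 12.3 CPM in WT, and every G784E library exceeded every WT library. The log2 fold change was 1.12 (SE 0.28, 2.17-fold; edgeR, adjusted p = 0.0245). The call was lost in DESeq2 (1.12, adjusted p = 0.0714) and in edgeR when G784E replicate 1 was left out (0.95, adjusted p = 0.0562). Leaving out a WT library also ended it, with a log2 fold change of 1.01 (edgeR, adjusted p = 0.358) for replicate 1 and of 1.25 (edgeR, adjusted p = 0.117) for replicate 2.

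Sycp1 encodes the transverse filament that joins the paired chromosome axes, and had the widest difference of the tested members. Its levels were 9.0 and 10.8 CPM in G784E and 2.64 and 2.54 CPM in WT, from 55, 92, 20 and 25 counts. The WT counts were low, and the WT levels differed by less than the G784E levels. The log2 fold change was 1.93 (SE 0.49, 3.82-fold; edgeR, adjusted p = 0.0293). The call was lost with upper-quartile scaling (1.93, adjusted p = 0.0612), without G784E replicate 2 (1.81, adjusted p = 0.168), without WT replicate 1 (1.96, adjusted p = 0.131) and without WT replicate 2 (1.90, adjusted p = 0.205), all in edgeR.

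The promoters of these 4 genes are shown because these are the members that passed the test. The E-box (CACGTG, bound by Mga and Max) and the core of the E2F site (TCCCGC, or GCGGGA on the other strand) are letters that the germline-gene repressor is known to recognise. Whether that repressor has a part in these differences was not tested. The windows are RefSeq promoters of build GRCm38.p6, 280 bases each on the gene's strand, from 250 bases before the start of transcription to 30 after it: Ddx4 at chr13:112652281-112652560 (minus strand), Mov10l1 at chr15:88982744-88983023 (plus strand), Sycp1 at chr3:102936071-102936350 (minus strand) and Syce1 at chr7:140787825-140788104 (minus strand). Capitals mark matches to either motif on either strand.
Ddx4: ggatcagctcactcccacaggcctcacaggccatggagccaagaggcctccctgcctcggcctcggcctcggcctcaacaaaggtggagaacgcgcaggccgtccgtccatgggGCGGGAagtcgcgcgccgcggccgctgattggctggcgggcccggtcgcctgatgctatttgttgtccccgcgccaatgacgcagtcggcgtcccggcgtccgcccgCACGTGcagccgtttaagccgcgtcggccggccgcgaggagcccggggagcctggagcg
Mov10l1: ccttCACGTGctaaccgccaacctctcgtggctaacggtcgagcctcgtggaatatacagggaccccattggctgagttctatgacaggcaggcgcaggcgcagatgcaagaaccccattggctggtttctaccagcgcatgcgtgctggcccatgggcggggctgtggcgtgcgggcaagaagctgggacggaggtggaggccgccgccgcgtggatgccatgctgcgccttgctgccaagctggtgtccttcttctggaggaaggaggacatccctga
Sycp1: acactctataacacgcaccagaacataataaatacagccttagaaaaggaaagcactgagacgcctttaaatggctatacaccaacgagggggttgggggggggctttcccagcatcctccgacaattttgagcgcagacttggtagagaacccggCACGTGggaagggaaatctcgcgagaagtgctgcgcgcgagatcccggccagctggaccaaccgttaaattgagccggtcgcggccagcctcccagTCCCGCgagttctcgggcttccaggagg
Syce1: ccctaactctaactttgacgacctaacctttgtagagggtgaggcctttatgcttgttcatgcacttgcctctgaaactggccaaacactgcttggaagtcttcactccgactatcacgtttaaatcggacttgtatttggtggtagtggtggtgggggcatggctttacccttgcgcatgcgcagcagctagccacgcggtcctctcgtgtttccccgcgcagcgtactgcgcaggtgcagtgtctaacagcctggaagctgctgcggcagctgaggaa
The Ddx4 and Sycp1 windows each held an E-box and an E2F core, the Mov10l1 window an E-box alone, and the Syce1 window neither.

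E-boxes were frequent in the promoters of the whole set. RefSeq windows of 300 bases (250 before the start and 50 after) were matched for 34 of the 40 genes, counting a gene once if any of its windows held the letters. An E-box was present in 15 of the 34 genes (44.1%), against 8.09% of 27025 genes with a window, and an E2F core in 14 (41.2%), against 22% of all genes. The set's windows had a median of 20 CpG dinucleotides, against 7 over all windows. Among windows with at least 15 CpG, an E-box was found in 51.9% of 27 members and 12% of 10038 genes, and an E2F core in 51.9% and 47.2%, so that the share with an E2F core was close to that of other CpG-rich promoters. By class, the E2F core stood in 8 of 11 meiotic chromosome genes (72.7%), 3 of 12 piRNA genes (25%) and 3 of 11 other germ-cell genes (27.3%), and the E-box in 5, 6 and 4 of them. An E-box was in 3 of the 4 genes that rose and in 12 of the 30 others, and an E2F core in 2 of the 4 and 12 of the 30. The others include members that were not tested. These are matches of letters, not sites shown to be bound.

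**Figure D2:**
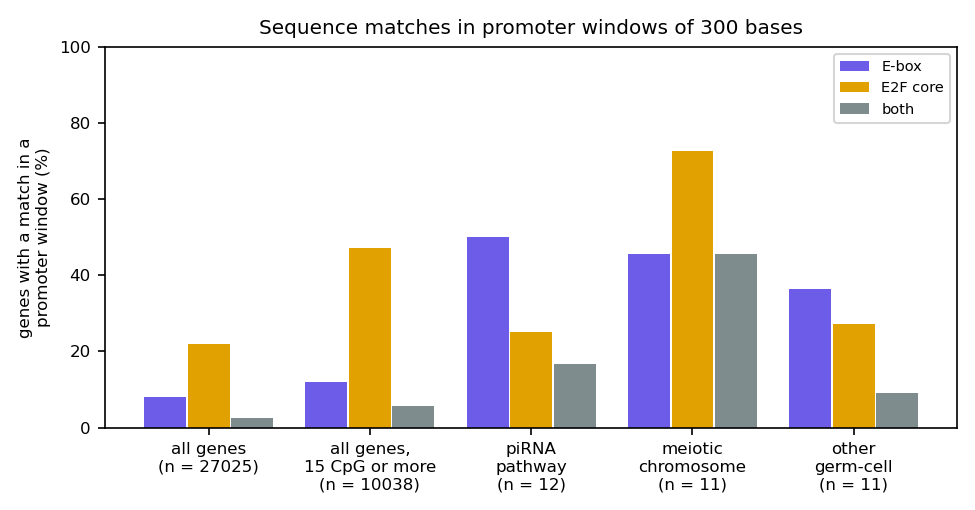
Percent of genes (y axis) with an E-box, an E2F core or both in a promoter window, for all genes, for all genes with windows of at least 15 CpG, and for the 3 classes of germline genes. The E2F core was in 72.7% of meiotic chromosome, 25% of piRNA and 27.3% of other germ-cell genes. It was in 22% of all genes and 47.2% of genes with windows of at least 15 CpG. An E-box was in 45.5%, 50% and 36.4% of the classes in the same order. It was in 8.09% of all genes and 12% of genes with windows of at least 15 CpG.

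The low end of the set was compared with reads in 1110 olfactory receptor genes, whose transcripts are not expected in stem cells. These reads amounted to 0.655 and 0.279 CPM per kb of coding length in G784E replicates 1 and 2 and to 0.602 and 0.186 CPM per kb in WT replicates 1 and 2, higher in replicate 1 of both groups. Coding length was used for both because the gene models of the counting are not given. It leaves out untranslated exons, whose reads may have been counted, and how far that shifts the multiples of background was not tested. Of the 40 genes, 28 had a mean level of at least 3 times this density, averaged over libraries, and 12 did not: Piwil1, Piwil4, Tdrd6, Tdrd7, Tdrd9 and Asz1 of the piRNA class, Sycp2, Spo11 and Smc1b of the meiotic class, and Brdt, Slc25a31 and Tex101 of the others. Of these 28, 24 also reached 3 times the density averaged over all libraries when each group's mean level was taken alone. Sycp1 and Stra8 reached it through G784E alone, and Hormad2 and Nanos3 through WT alone. Ddx4, Mov10l1 and Syce1 were among the 24. Relative to each library's own density, Sycp1 lay at 4.61 and 13.1 times in G784E and 1.47 and 4.58 times in WT. Its WT mean was 2.02 times the density averaged over all libraries, so its place in the grouping depends on which density is used.

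**Figure D3:**
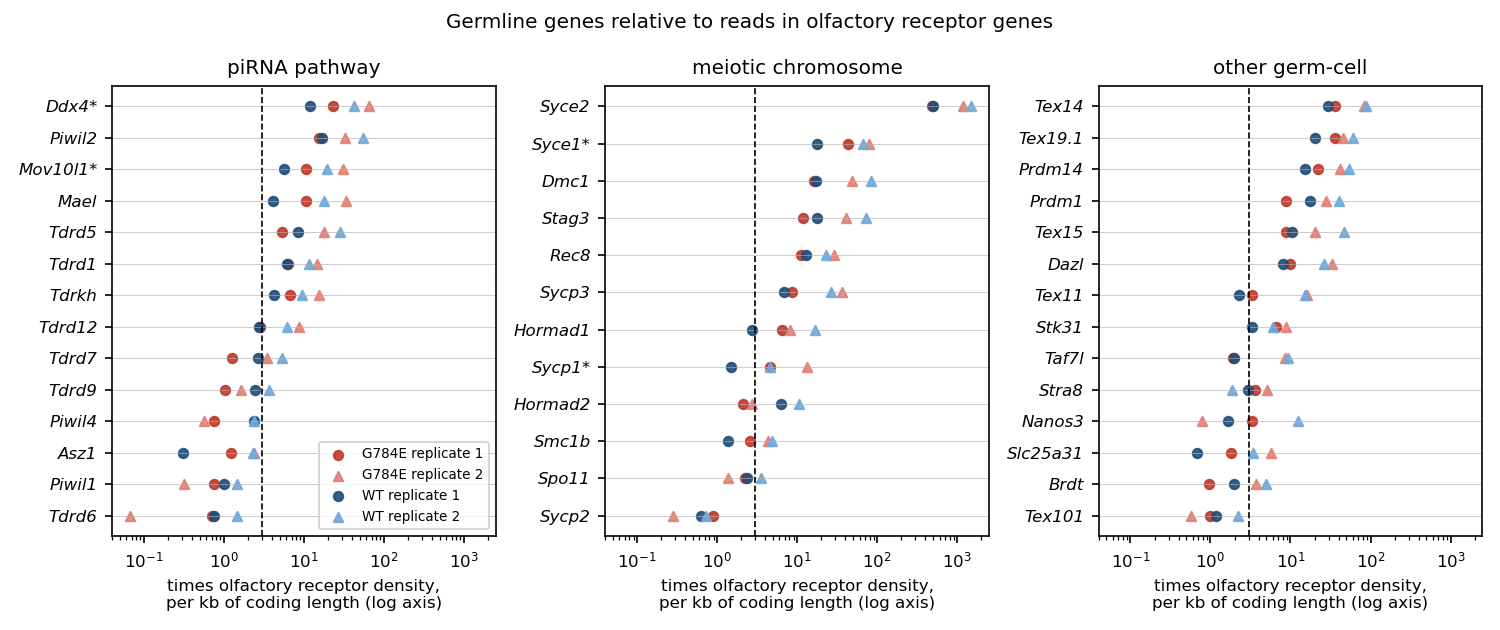
Level of each gene per kb of coding length divided by the olfactory receptor density of the same library (x axis, log scale), with circles for replicate 1 and triangles for replicate 2. The dashed line marks 3 times the density, and asterisks mark the 4 genes that passed the test. The grouping of genes in the text used the density averaged over all libraries instead.

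Within the piRNA pathway, Ddx4 and Mov10l1 rose and no PIWI gene passed the test. The class had 13 tested members, of which 2 rose and 0 fell, beside 0.672% and 1.89% of all tested genes. The median log2 fold change of the 13 was -0.08. The median over the 8 members above background was 0.82, and 5 of the 7 tested members with values below 0 were near background. That cut was set after seeing the data and uses the same levels that are compared, so the 0.82 is not independent of them. Tdrd7, for example, was at 3.03 times the averaged density in WT and 2.06 times in G784E, and its mean of 2.55 left it out. The summed level of all 14 genes was 150 and 163 CPM in G784E and 121 and 106 CPM in WT.

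Mael, which encodes a nuage protein needed for transposon silencing, had the smallest adjusted p of the members that did not pass. It stood at 9.16 and 12.3 CPM in G784E and 3.17 and 4.37 CPM in WT, with no overlap. The log2 fold change was 1.50 (SE 0.44; edgeR, adjusted p = 0.0746), and leaving out G784E replicate 1 brought the gene past the threshold (1.71, adjusted p = 0.0203). It did not pass without G784E replicate 2 (1.30, edgeR, adjusted p = 0.314), without either WT library (1.30 and 1.75, adjusted p = 0.52 and 0.22) or in DESeq2 (1.51, adjusted p = 0.149). Tdrkh, whose Tudor-domain protein anchors PIWI proteins at mitochondria, stood at 7.36 and 7.30 CPM in G784E and 4.23 and 2.94 CPM in WT (log2 fold change 1.04, 95% confidence interval -0.06 to 2.13; edgeR, adjusted p = 0.473). In the GENCODE annotation, 2255 exonic bases of Tdrkh lie opposite Oaz3, and without a stated strand setting reads of the pair cannot be told apart.

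For each PIWI gene the 95% confidence interval of the log2 fold change included 0. Piwil2, a PIWI gene of early germ cells, stood at 29.8 and 26.6 CPM in G784E and 29.8 and 29.5 CPM in WT, where the libraries overlapped. Its log2 fold change was -0.08, with a 95% confidence interval of -0.56 to 0.41, so that a change of the size seen for Ddx4 lay outside the interval. Piwil1 and Piwil4 stayed between 0.236 and 4.36 CPM in all libraries. Both were near background, and their log2 fold changes of -0.59 and -1.55 had SEs of 1.52 and 1.15.

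The remaining Tudor-domain genes, which encode scaffolds that bind methylated arginines of PIWI proteins, were spread around 0. Tdrd1 stood at 14.6 and 14.4 CPM in G784E and 12.9 and 7.62 CPM in WT (log2 fold change 0.50, SE 0.33). Tdrd12 stood at 7.20 and 9.42 CPM in G784E and 6.47 and 4.47 CPM in WT (0.61, SE 0.44). For both genes the G784E libraries lay above the WT libraries, but neither passed (edgeR, adjusted p = 0.669 for Tdrd1 and 0.728 for Tdrd12). In contrast, Tdrd5 lay slightly lower in G784E and did not pass. Tdrd5 stood at 11.0 and 15.4 CPM in G784E and 15.6 and 16.3 CPM in WT (-0.27, SE 0.29; edgeR, adjusted p = 0.895). In the annotation, 176 exonic bases of Tdrd5 lie opposite the antisense gene 4930518J20Rik. Tdrd6, Tdrd7 and Tdrd9 were at 0.118 to 6.07 CPM in all libraries, and none passed. Asz1, which encodes a mitochondrial partner of the pathway, had 7 and 8 counts in G784E and 2 and 6 in WT and was not tested.

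**Figure D4:**
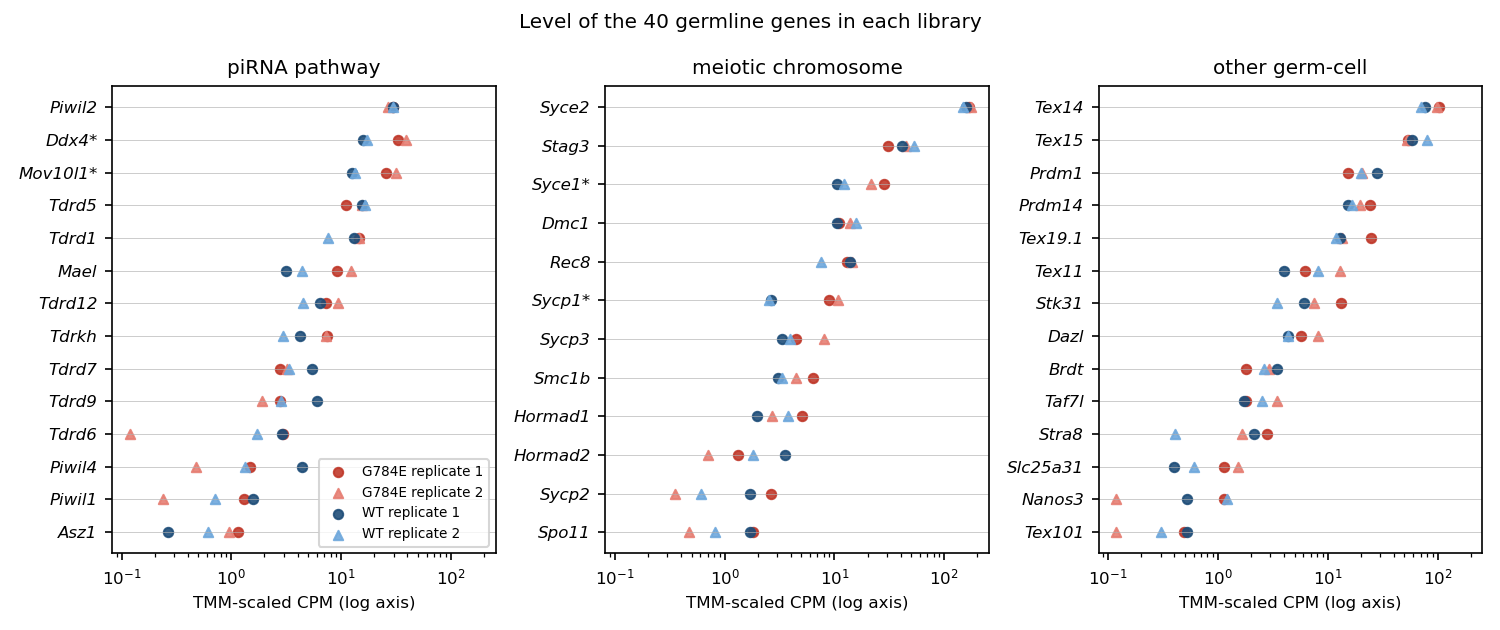
TMM-scaled CPM of each of the 40 genes in each of the 4 libraries (x axis, log scale), in panels for the 3 classes, with G784E in red and WT in blue. Ddx4, Mov10l1, Sycp1 and Syce1 (asterisks) show both G784E libraries to the right of both WT libraries, whereas Piwil2 and Dmc1 overlap.

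Among meiotic chromosome genes, the synaptonemal complex genes Syce1 and Sycp1 rose. The rest of the class, among them Syce2, Sycp2 and Sycp3 of the same complex, did not pass. All 12 genes of the class were tested, and 2 were called higher and 0 lower, beside 0.672% and 1.89% of all tested genes. The median log2 fold change of the class was 0.36. The median was 0.16 without G784E replicate 1, 0.55 without WT replicate 1, 0.19 without WT replicate 2 and 0.21 in limma-voom. The summed level of the class was 281 and 299 CPM in G784E and 252 and 253 CPM in WT, and most of it was Syce2.

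Syce2, the partner of Syce1 in the central element, was the most highly expressed gene of the set per length, at 317 and 332 CPM per kb of coding sequence in G784E and 299 and 279 CPM per kb in WT. The next genes in that order were Tex14 (23.3, 22.8, 17.5 and 16.3 CPM per kb in G784E replicates 1 and 2 and WT replicates 1 and 2) and Syce1 (28.4, 22.0, 10.6 and 12.5 CPM per kb), whose ranges overlap. Syce2 itself had a log2 fold change of 0.17 (95% confidence interval -0.24 to 0.57) from 168 and 176 CPM in G784E and 159 and 148 CPM in WT. The test of Syce1 passed and that of Syce2 did not, and the difference between the genes was not tested. Sycp3, a protein of the lateral elements, stood at 4.42 and 8.01 CPM in G784E and 3.30 and 3.96 CPM in WT (0.78, SE 0.57), and 660 of its annotated exonic bases lie opposite Chpt1. Its partner Sycp2 stood at 0.353 to 2.62 CPM, at or below the olfactory receptor density in all 4 libraries.

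Genes of the meiotic cohesin complex showed no common direction. Stag3, its specific stromal subunit, stood at 30.6 and 44.9 CPM in G784E and 41.1 and 53.0 CPM in WT, with overlap (log2 fold change -0.31, SE 0.24). Rec8, the kleisin cut at the meiotic divisions, stood at 13.1 and 14.4 CPM in G784E and 13.7 and 7.51 CPM in WT (0.38, SE 0.34). For Rec8, WT replicate 2 was the low library and the other 3 lay close together. Smc1b, the meiotic SMC subunit, stood at 6.38 and 4.48 CPM in G784E and 3.04 and 3.35 CPM in WT (0.76, SE 0.63).

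Dmc1, the recombinase that carries out strand invasion between homologues, was expressed and did not differ beyond its spread. Its levels were 11.0 and 13.9 CPM in G784E and 10.4 and 15.6 CPM in WT (log2 fold change -0.07, 95% confidence interval -0.73 to 0.59). Spo11, which makes the meiotic breaks, had 4 to 13 counts per library. The axis genes Hormad1 and Hormad2 were at 0.707 to 5.07 CPM. Their log2 fold changes of 0.42 and -1.42 pointed in opposite directions, with SEs of 0.76 and 1.12, and neither passed.

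None of the other germ-cell genes passed, although several lay higher in G784E. Of 11 tested members, 8 had values above 0 and 3 below, with a median log2 fold change of 0.45. At an unadjusted edgeR p under 0.05, 2 were higher, Tex14 and Stk31, beside 5.14% of all tested genes. DESeq2 and limma-voom called 0 of the class. The summed level of the 14 genes was 254 and 244 CPM in G784E and 215 and 223 CPM in WT.

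Tex14, a gene of the bridges that join dividing germ cells, stood at 102 and 99.9 CPM in G784E and 76.6 and 71.4 CPM in WT. The replicates lay close together and the groups apart, with a log2 fold change of 0.45 (SE 0.20; edgeR, adjusted p = 0.363). Stk31, a Tudor-domain kinase gene of testis, stood at 13.1 and 7.42 CPM in G784E and 6.07 and 3.45 CPM in WT (1.11, SE 0.45; edgeR, adjusted p = 0.282). In both groups of Stk31, replicate 1 was the higher library. Tex19.1, which acts in germ cells and placenta, stood at 24.7 and 13.4 CPM in G784E and 12.9 and 11.8 CPM in WT (0.62, SE 0.31; edgeR, adjusted p = 0.457). G784E replicate 1 was apart from the other 3 libraries, and without G784E replicate 2 the gene passed (1.02, edgeR, adjusted p = 0.0257). Without G784E replicate 1 the log2 fold change was 0.14 (edgeR, adjusted p = 0.92), and it did not pass without either WT library (0.69 and 0.55, adjusted p = 0.941 and 0.885). Its close copy Tex19.2 stayed at or below 0.491 CPM.

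Dazl, an RNA-binding regulator of germ-cell translation, stood at 5.73 and 8.13 CPM in G784E and 4.36 and 4.37 CPM in WT (log2 fold change 0.67, SE 0.51). Tex11, an X-linked gene of crossover formation, stood at 6.22 and 13.0 CPM in G784E and 3.96 and 8.12 CPM in WT (0.67, SE 0.45), with replicate 2 the higher library in each group. Tex15, needed for meiotic recombination and transposon silencing, stood at 53.7 and 52.5 CPM in G784E and 58.5 and 79.4 CPM in WT (-0.38, SE 0.22). None of the 3 passed, and the groups overlapped for Tex11. The log2 fold change of Tex11 was 0.06 without G784E replicate 2, 0.25 without WT replicate 1 and 1.28 without WT replicate 2, and that of Tex15 was -0.14 without WT replicate 2. Stra8, the gate to meiosis, had 4 to 17 counts per library.

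The specifiers of primordial germ cells took no common direction. Prdm14, which also supports naive pluripotency, stood at 24.1 and 19.6 CPM in G784E and 15.5 and 16.8 CPM in WT (log2 fold change 0.43, SE 0.27; edgeR, adjusted p = 0.62). Prdm1, which encodes Blimp1, stood at 15.2 and 20.4 CPM in G784E and 27.9 and 20.0 CPM in WT (-0.42, SE 0.27; edgeR, adjusted p = 0.663). Prdm14 did not overlap between groups and Prdm1 did. Nanos3, a survival factor of the same cells, had 1 to 12 counts. The genes of later male germ cells in the class, Brdt, Taf7l, Slc25a31 and Tex101, stayed between 0.118 and 3.43 CPM.

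Further genes of the same pathways were read from lists that do not overlap the 40. Of 11 tested further piRNA genes, 0 rose and 1 fell, with a median log2 fold change of -0.30 (0 higher and 1 lower at an unadjusted edgeR p under 0.05). The one that fell was Dnmt3l, the cofactor of de novo DNA methylation at transposons, at 26.2 and 31.9 CPM in G784E against 70.9 and 78.5 CPM in WT (-1.36, SE 0.22; edgeR, adjusted p = 0.000399). Of 19 tested further meiosis genes, 0 were called (3 higher and 1 lower at an unadjusted edgeR p under 0.05, and 0 in DESeq2 and limma-voom after adjustment), with a median of 0.02. Dnmt3l was the only edgeR call in these lists. Over all tested genes, 0.672% were called higher and 1.89% lower, and 5.14% and 6.48% were so at an unadjusted edgeR p under 0.05.

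Of 14 tested germ-cell regulators, 1 rose and 0 fell in edgeR (2 higher and 1 lower at an unadjusted p under 0.05; 0 lower in DESeq2 and 1 in limma-voom after adjustment), with a median log2 fold change of 0.31. The gene that rose was Dmrt1, which encodes a regulator of testis fate and germ-cell differentiation, at 29.9 and 20.8 CPM in G784E and 2.64 and 3.66 CPM in WT (2.99, SE 0.34; edgeR, adjusted p = 4.4e-06). Its log2 fold change exceeded those of all 36 tested members. Kit, the receptor gene of migrating germ cells, was the 1 lower at an unadjusted p under 0.05, at 37.1 and 48.4 CPM in G784E and 75.0 and 72.2 CPM in WT, with no overlap (-0.78, SE 0.22; edgeR, adjusted p = 0.053). Among known repressors of germline genes, 23 were tested, with a median of 0.17. At an unadjusted edgeR p under 0.05, 5 were higher and 1 was lower, the methyltransferase gene Dnmt3b (-0.42, SE 0.20). Over all tested genes, 5.14% were higher and 6.48% lower at that level, and 0.672% and 1.89% after adjustment. Of the repressors, 2 rose after adjustment and 0 fell. These were the de novo methyltransferase gene Dnmt3a (1.43, SE 0.20; edgeR, adjusted p = 7.88e-05) and the co-repressor gene Trim28 (0.96, SE 0.21; edgeR, adjusted p = 0.00806). The Trim28 call was lost without WT replicate 1 (0.75, edgeR, adjusted p = 0.133) and with no filter (0.92, adjusted p = 0.0556). The Polycomb subunit genes L3mbtl2, E2f6, Pcgf6, Mga and Max did not pass. Their log2 fold changes were 0.28, 0.08, 0.29, 0.51 and 0.40, with SEs of 0.21, 0.26, 0.21, 0.22 and 0.20.

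**Figure D5:**
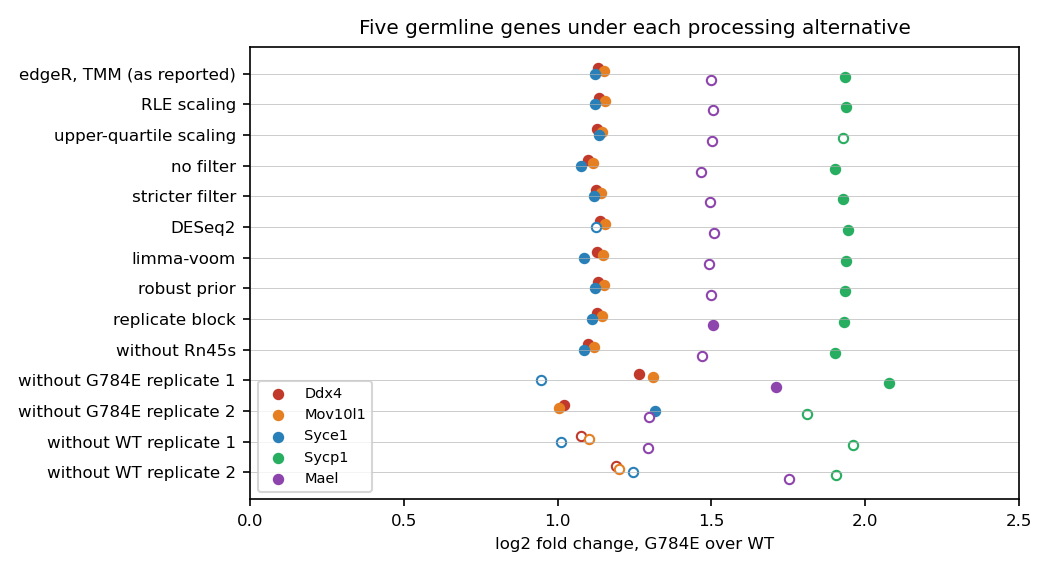
Log2 fold change (x axis, G784E over WT) of Ddx4, Mov10l1, Syce1, Sycp1 and Mael under each processing alternative. Filled circles passed at an adjusted p under 0.05 and open circles did not: all 5 genes are open without WT replicate 1 and without WT replicate 2, while their log2 fold changes stay above 0.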

How the data were processed

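For each of 4 libraries the authors deposited 1 table of unnormalized read counts by gene symbol. The submitters' processing notes name build mm9 and the tools HTSeq, DESeq2, Bowtie2 2.1.0 and CASAVA 1.8.2. Which annotation, counting mode and strand option they used is not given in the sources used here. Summary rows (88.3% and 83.7% of reads in G784E, 88.7% and 83.3% in WT), mostly reads not placed uniquely, entered neither library sizes nor tests, so reads shared by gene copies are not counted.

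Counts were tested with edgeR 4.0.16 in R 4.3.3 (quasi-likelihood, TMM scaling, filterByExpr with a minimum count of 10 and total of 15, group as the only term, 2 residual degrees of freedom), which kept 15763 genes, and p-values were adjusted by Benjamini-Hochberg over all of these. The SE is the log2 fold change divided by the square root of F, and the 95% confidence intervals are not adjusted for the number of genes. CPM within numbered pairs used a pseudocount of 0.5. Alternatives included DESeq2 1.42.0 and limma-voom (limma 3.58.1). The procedures were tested on simulated data, drawn with a common dispersion for all genes and independent libraries. Such data lack the shared deviation of same-numbered libraries, so that test gives no support to the calls made here. Coding lengths and overlaps came from GENCODE M21 and promoters from RefSeq, both on GRCm38. That build is not the mm9 of the counts, so the coordinates of the promoter windows belong to GRCm38.p6 and were not joined to the counts by position.

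The members, classes and lists were chosen with earlier results of these data known, and the comparison with olfactory receptor genes was set after seeing the data. Per-library values are given for members past the threshold or with a mean of at least 5 CPM; values of Sycp3, Smc1b and others below that level, and those of Asz1, were added as further members. Of the further lists, called genes are named, up to 4 in each direction. Wt1, Gapdhs, Kit, Dnmt3b and Polycomb subunits were added after their values were seen. Of 14 further piRNA, 26 meiosis and 10 somatic testis symbols, 13, 23 and 9 were in the tables.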

Additional observations from a re-analysis of the deposited data

How the results depend on the processing

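Leaving out a library gives its group a lone library, whose spread is then taken from the other group. The members called higher, 4, were 0 to 4 with a library left out (piRNA 0 to 3, meiotic 0 to 1, other germ-cell 0 to 1), 0 without either WT library, 3 in DESeq2 and with upper-quartile scaling (1 meiotic in each) and 5 with the replicate block. The numbers in the labels are not said to mark a shared batch, although same-numbered libraries deviated together (Pearson r = 0.476 over 15763 genes, which are not independent replicates), and the replicate block added Mael (1.51, edgeR, adjusted p = 0.0171) to the calls. Over all genes it called 546 higher and 658 lower, against 106 and 298 without it. Those numbers were 29 to 307 and 156 to 532 with a library left out, and 186 were higher in limma-voom. The member median of 0.40 was 0.21 to 0.41 with a library left out. The piRNA median of -0.08 was 0.82 among members above background (an alternative chosen after seeing the data, like the requirement in both groups, under which it was also 0.82 and 3 members were called higher, 1 of them meiotic), -0.083 to 0.37 with a library left out, and above 0 with no filter (0.17) and a stricter one (0.20; 50 counts in total, with 2 libraries reaching 1 CPM). The meiotic median of 0.36 was 0.16 to 0.55 with a library left out. The median of the other germ-cell members, 0.45, was 0.53 above background (0.449 among members above it in both groups, which leaves out Stra8 and Nanos3), 0.40 with no filter and 0.38 to 0.49 with a library left out. The sign of the log2 fold change turned under at least 1 alternative for 8 members, none of them called: Piwil1, Piwil2, Tdrd6, Sycp2, Hormad1, Spo11, Dmc1 and Taf7l. Members called lower were 0 under every alternative run. Counting Tex11, Tex15 and Stra8 as meiotic left the class counts as they were. The cause of these moves was not tested. At these depths, the log2 fold changes of members under 3 times the olfactory receptor density had SEs of up to 1.52, and no such member was called.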
